A study of Homo sapiens with 4 samples.

Results

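Expression of 9 interferon-stimulated genes was read from a table of 28482 genes: BST2, IFITM1, IFITM2, IFITM3, ISG15, IFI6, IRF9, TAP1 and B2M. They were taken by gene name, as a set chosen with earlier results of these data known, and all 9 had a row. RNA was sequenced from K562/G01, an imatinib-resistant derivative of K562, an established line from chronic myeloid leukemia whose BCR-ABL1 fusion kinase is the target of imatinib. All cells carried a stably integrated lentiviral hairpin, either scramble or directed at TCF7, which encodes a DNA-binding partner of beta-catenin in Wnt signalling. The 4 groups were scramble, TCF7 knockdown, scramble with imatinib and TCF7 knockdown with imatinib, and imatinib was given at 1 µM for 48 hours. Each group had 1 library. The labels name neither the number of hairpins nor whether clones were picked, and do not say whether cultures were infected or treated separately.

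Interferons are secreted when a cell senses viral or misplaced nucleic acid. Types I and III signal through the kinases JAK1 and TYK2 to a complex that holds STAT2 and IRF9 and binds the interferon-stimulated response element (ISRE). Type II signalling acts through the gamma-activated site (GAS). The genes that follow act on viruses at many steps, and several of them keep a basal level without interferon. BST2 (tetherin) holds budding virions at the cell surface, the IFITM proteins block fusion of viral and cell membranes, ISG15 is a ubiquitin-like modifier, IFI6 is a membrane protein with antiviral effects, TAP1 is a subunit of the transporter that loads peptides onto MHC class I, and B2M is the light chain of class I molecules.

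The ISRE letters in the promoters of these genes are shown first. RefSeq promoter windows on GRCh38.p14, from 250 bases before to 50 bases after the start site, were found for 8 of the 9 genes, with 9 windows in all because TAP1 has 2. The ISRE core was searched as GAAANNGAAA on both strands. It lay in the windows of 7 of the 8 genes, all but IRF9, against 3.57% of 35116 promoter windows of the same length. Here and below, such a share over all promoters counts windows and not genes. The 9 genes were chosen as interferon-stimulated, so this count is a description and not a test. The match nearest to the start site is printed for each gene with 10 bases on either side and the core in capitals, read 5′ to 3′ on the strand that carries the motif, which for TAP1 is opposite to the gene.
BST2: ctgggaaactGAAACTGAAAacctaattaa
IFITM1: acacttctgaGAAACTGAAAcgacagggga
IFITM3: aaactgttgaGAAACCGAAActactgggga
ISG15: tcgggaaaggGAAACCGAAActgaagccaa
IFI6: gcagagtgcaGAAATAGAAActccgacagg
B2M: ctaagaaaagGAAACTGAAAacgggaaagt
TAP1: ccatttagggGAAAGCGAAAtcgaaagcgg
The same core letters occur in BST2, IFITM1 and B2M, and IFITM3 and ISG15 share another version. The stretches lie at chr19:17405735-17405764 (minus strand) for BST2, chr11:314024-314053 for IFITM1, chr11:320876-320905 (minus strand) for IFITM3, chr1:1013380-1013409 for ISG15, chr1:27672266-27672295 (minus strand) for IFI6, chr15:44711369-44711398 for B2M and chr6:32853813-32853842 for TAP1. The core of BST2 began 124 bases before the start site, that of ISG15 107, that of B2M 138 and that of TAP1 128, and in each of these 4 genes a second core overlapped it. In IFITM1 and IFITM3 the nearest core began 6 and 35 bases before the start.

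**Figure D1:**
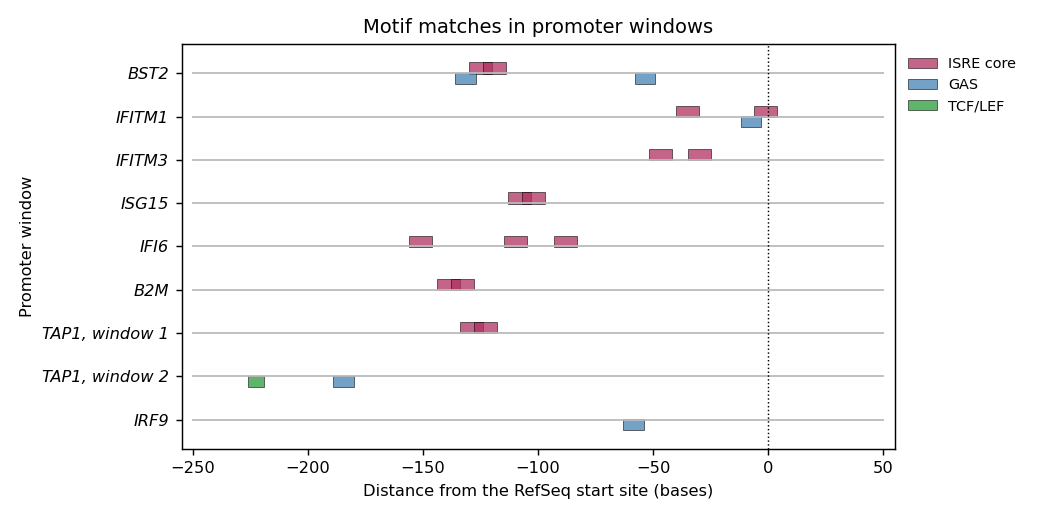
Positions of motif matches in the promoter windows of 8 genes; the x axis is the distance from the RefSeq start site in bases, and boxes above and below each line mark ISRE cores and other motifs. An ISRE core lies in every window except the second TAP1 window and the IRF9 window.

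The GAS motif, searched as TTCNNNGAA, lay in the windows of 4 of the 8 genes (BST2, IFITM1, IRF9 and TAP1), against 7.66% of all windows. In BST2 a GAS match overlapped an ISRE core, and the same was seen in IFITM1. The TCF/LEF motif, to which TCF7 and its relatives bind, was searched as CTTTG followed by A or T at each of the next positions on both strands. It lay in the window of 1 of the 8 genes, TAP1, against 13.8% of all windows. These matches describe letters in a short window and do not show binding.

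The libraries held between 30634832 and 34095585 counts. Mitochondrially encoded genes took 6.76% of the counts in scramble, 7.32% in knockdown, 6.94% in scramble with imatinib and 8.28% in knockdown with imatinib, higher with knockdown in 2 of 2 pairs. TCF7 had 339 counts in scramble against 78 in knockdown cells, and 367 against 117 under imatinib. It fell with knockdown by 1.75 on the log2 scale (SE 0.206, edgeR adjusted p = 1.51e-07), in 2 of 2 pairs. Markers of the erythroid lineage of K562 were present: all 10 had over 10 counts in every library, with a summed level of 3396 to 3651 CPM (counts scaled to the same library total). Of these 10, LMO2 fell with knockdown (log2 fold change -0.56, edgeR adjusted p = 0.000435), where 3.34% of all tested genes fell. Under imatinib 3 rose and 5 fell, where 13.8% of all tested genes rose and 7.08% fell. With GC content and transcript length trends as offsets in the fit, 0 rose and 2 fell with knockdown, against 6.77% and 5.53% of genes. In that fit 1 rose and 4 fell under imatinib, against 2.08% and 2.27% of genes. By contrast, CD3E, CD2, CD79A, CD79B, CSF1R, FCGR3A, S100A8, COL1A2 and CDH1 were at 0 in at least 1 library. The 5 fibroblast markers summed to 0.763 and 0.875 CPM in the scramble libraries against 1.92 and 1.93 CPM in the knockdown libraries, mostly through COL1A1 (5, 42, 7 and 32 counts, in the order scramble, knockdown, scramble with imatinib, knockdown with imatinib), which rose with knockdown (log2 fold change 2.71, edgeR adjusted p = 0.00142). B cell markers summed to at most 0.131 CPM, monocyte markers, mostly LYZ, to 36.5 to 44.2 CPM, T cell markers to 20.4 to 26.6 CPM and epithelial markers to 46.1 to 58.5 CPM. Of the T cell markers, TRAC rose with knockdown (33, 91, 49 and 85 counts; log2 fold change 1.24, edgeR adjusted p = 0.0246). The part of these markers and of the mitochondrial share in the results below was not tested. In a bulk library, a change in the share of cells that express a gene and a change in the level per cell cannot be told apart.

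The 9 genes spanned a wide range of levels. Together they took 383.1 CPM in scramble, 464.8 CPM in knockdown, 368.2 CPM in scramble with imatinib and 461.7 CPM in knockdown with imatinib. B2M alone made up 77.5%, 77.0%, 68.8% and 67.4% of these sums. Without B2M the other 8 genes summed to 86.3, 107.0, 114.9 and 150.5 CPM in the same order, lowest with neither treatment and highest with both. BST2, IFITM1 and IFITM2 made up most of this sum, and not every gene followed its order.

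**Figure D2:**
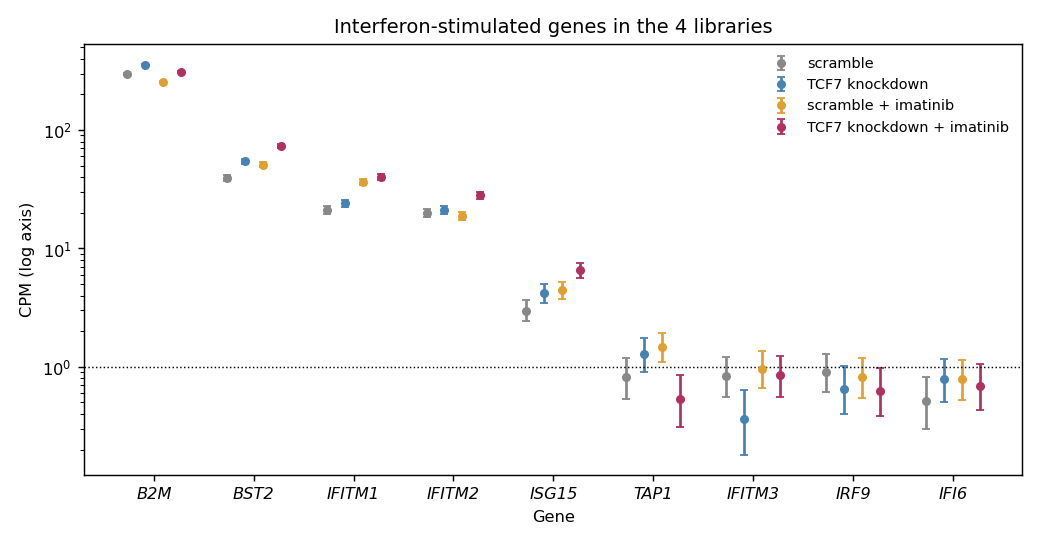
CPM of each gene (log axis) in the 4 libraries, with exact 95% Poisson intervals that cover counting error only; the dotted line marks 1 CPM. B2M, BST2, IFITM1, IFITM2 and ISG15 lie above the line in every library, and the other 4 genes lie near or below it.

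Per kilobase of merged exons, the order in the scramble library was B2M (48.8 CPM per kb), BST2 (35.05), IFITM1 (19.6), IFITM2 (12.9) and ISG15 (3.17). IFITM3, IFI6, IRF9 and TAP1 followed, between 0.170 and 0.627 CPM per kb. Under imatinib BST2 stood above B2M on this scale, at 45.6 against 41.7 CPM per kb in scramble cells and 65.2 against 51.2 in knockdown cells. That order rests on the length used: per kilobase of the principal transcript B2M was above BST2 in all 4 libraries, at 149 against 50.1 CPM per kb in scramble cells with imatinib. Neighbours at the bottom of the order, IRF9 and TAP1, had overlapping counting intervals in all 4 libraries, and so did IFITM3 and IFI6 in 3 of 4 on the merged-exon scale. IFITM1 and IFITM2 overlapped only in the scramble library and only per principal transcript.

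The knockdown comparison addresses which transcripts differ when TCF7 is reduced, with and without the drug. BST2 and B2M rose with TCF7 knockdown, both in untreated and in imatinib-treated cells. BST2 was about 1.4-fold higher and B2M about 1.2-fold higher in the knockdown libraries. No change was called for IFITM1, IFITM2, ISG15 or TAP1, and IFITM3, IFI6 and IRF9 were too low to be tested. Thus 2 of 6 tested genes were called higher and 0 lower, where 3.80% of 13296 genes were called higher, 3.34% lower and 7.14% in either direction. A gene had to reach 1 CPM in at least 2 libraries to be tested, so the 6 are not all members of the set. Because the set was chosen with earlier results of these data known, here and below such shares and medians describe it and do not test it.

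BST2 (ENSG00000130303.12; GRCh38 chromosome 19, 17402939 to 17405648, minus strand) had 1300 counts in scramble, 1674 in knockdown, 1741 in scramble with imatinib and 2317 in knockdown with imatinib. These are 39.2 CPM (counting interval 37.1 to 41.4), 54.6 CPM (52.1 to 57.3), 51.1 CPM (48.7 to 53.5) and 73.0 CPM (70.05 to 76.0). Both knockdown libraries stood above the scramble library of the same drug state, and the scramble library with imatinib lay just below the untreated knockdown library, with overlapping intervals. The ratio of knockdown over scramble was 1.40-fold (1.30 to 1.51) without imatinib and 1.45-fold (1.36 to 1.54) under it. Over both drug states BST2 rose by a log2 fold change of 0.51 (SE 0.0885, edgeR adjusted p = 0.000133), higher in 2 of 2 pairs. The knockdown log2 ratio under imatinib exceeded that without it by 0.05, a difference that was not tested. BST2 was also fitted with 3 libraries and without the imatinib term, which leaves 1 library in a group, so only effect sizes are given. Its log2 fold change was then 0.69 without knockdown, 0.34 without scramble, 0.71 without scramble with imatinib and 0.30 without knockdown with imatinib.

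B2M (ENSG00000166710.17; chromosome 15, 44711487 to 44718877, plus strand) had 9837, 10962, 8638 and 9879 counts in the order scramble, knockdown, scramble with imatinib, knockdown with imatinib. In CPM these are 296.8 (290.9 to 302.7), 357.8 (351.2 to 364.6), 253.3 (248.0 to 258.7) and 311.2 (305.1 to 317.4). The counting intervals of the 4 libraries were separate, with the untreated knockdown library highest and the scramble library with imatinib lowest. Knockdown over scramble was 1.21-fold (1.18 to 1.25) without imatinib and 1.25-fold (1.21 to 1.28) under it. B2M rose with knockdown by a log2 fold change of 0.30 (SE 0.0692, edgeR adjusted p = 0.00464), higher in 2 of 2 pairs. It was not called by limma on the deposited FPKM values (0.28, adjusted p = 0.0819). With 1 library left out and no imatinib term in the fit, the log2 fold change ranged from 0.18 to 0.42.

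**Figure D3:**
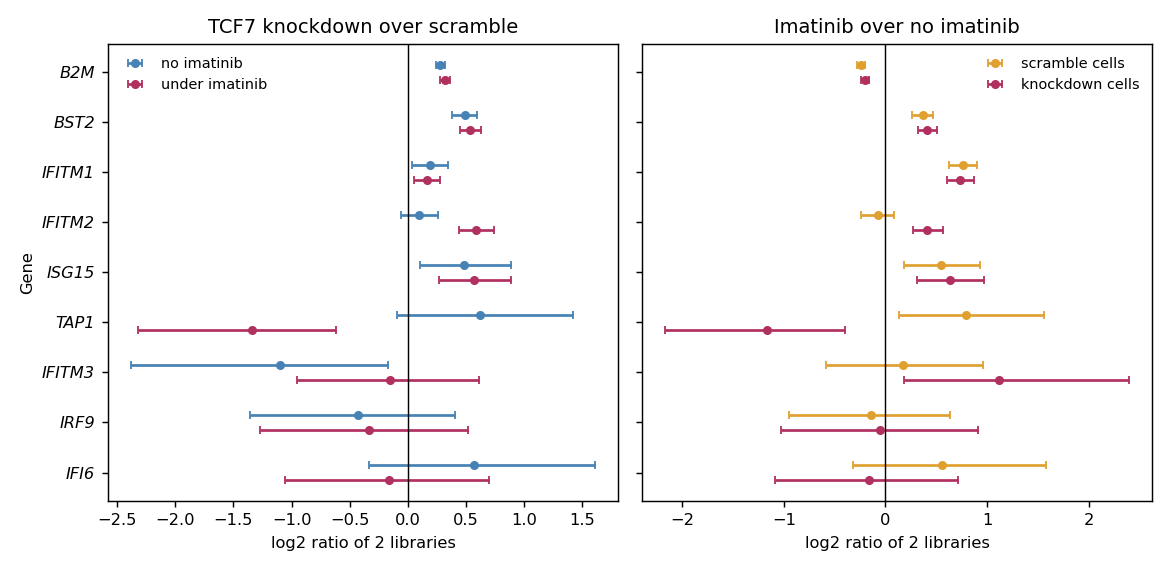
Log2 ratios of 2 libraries with 95% counting intervals; left, TCF7 knockdown over scramble in each drug state; right, imatinib over no imatinib in each hairpin state. BST2, B2M, IFITM1 and ISG15 have like ratios in both states of each panel, whereas the 2 ratios of TAP1 lie on opposite sides of 0.

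The IFITM genes lie side by side on chromosome 11 and did not share a pattern. IFITM1 (ENSG00000185885.15; 313506 to 315272, plus strand), found mostly at the plasma membrane, had 703 counts in scramble, 737 in knockdown, 1240 in scramble with imatinib and 1275 in knockdown with imatinib, or 21.2, 24.1, 36.4 and 40.2 CPM. Its libraries separated by drug far more than by hairpin. The knockdown log2 ratios were 0.19 (0.04 to 0.34) and 0.16 (0.05 to 0.28), and the gene was not called (log2 fold change 0.18, SE 0.105, edgeR adjusted p = 0.376).

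IFITM2 (ENSG00000185201.16; 307631 to 315272, plus strand), which acts mainly in endosomes, had 657, 645, 647 and 893 counts in the same order, or 19.8, 21.1, 19.0 and 28.1 CPM. The first 3 libraries had overlapping counting intervals, and the knockdown library with imatinib stood apart above them. Its knockdown log2 ratio was 0.10 (-0.06 to 0.25) without imatinib and 0.59 (0.44 to 0.74) under it, a difference of 0.49 that was not tested. IFITM2 was not called for knockdown (0.34, SE 0.126, edgeR adjusted p = 0.0971), but was with GC and length trends as offsets (0.31, adjusted p = 0.0352). In that fit 3 of the 6 tested genes were called higher and 0 lower, where 6.77% of 13255 genes were called higher, 5.53% lower and 12.3% in either direction.

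IFITM3 (ENSG00000142089.15; 319669 to 327537, minus strand), the endosomal member known for restricting influenza virus, had 28, 11, 33 and 27 counts, or 0.845 CPM (0.561 to 1.22), 0.359 CPM (0.179 to 0.642), 0.968 CPM (0.666 to 1.36) and 0.851 CPM (0.561 to 1.24). The untreated knockdown library was the lowest, with a log2 ratio over scramble of -1.10 (-2.38 to -0.17), against -0.16 (-0.96 to 0.61) under imatinib. At these counts the interval of the first ratio spans more than 2 units on the log2 scale.

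Counts of the IFITM genes carry an uncertainty of assignment. The annotated span of IFITM2 reaches over IFITM1, and the 2 genes share 351 exon bases. Of the 50-base windows of its principal transcript, IFITM1 shared 6.20% with IFITM2 and 12.2% with IFITM3, IFITM2 shared 10.4% with IFITM3, and IFITM3 shared 12.9% with IFITM1. Reads from such stretches could have been split or dropped by the authors' counting, whose mode is not given in the sources used here.

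ISG15 (ENSG00000187608.8; chromosome 1, 1001138 to 1014540, plus strand) had 99 counts in scramble, 128 in knockdown, 151 in scramble with imatinib and 207 in knockdown with imatinib, or 2.99 CPM (2.43 to 3.64), 4.18 CPM (3.49 to 4.97), 4.43 CPM (3.75 to 5.19) and 6.52 CPM (5.66 to 7.47). The order of its libraries was that of BST2 except that scramble with imatinib lay just above untreated knockdown, and these intermediate libraries overlapped. The knockdown log2 ratios were 0.48 (0.10 to 0.89) and 0.57 (0.27 to 0.89). ISG15 was not called for knockdown (log2 fold change 0.54, SE 0.237, edgeR adjusted p = 0.194), a fold as large as that of BST2 with an error more than 2-fold larger.

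IFI6 (ENSG00000126709.14; chromosome 1, 27666061 to 27672218, minus strand) had 17, 24, 27 and 22 counts, or 0.513 CPM (0.299 to 0.821), 0.783 CPM (0.502 to 1.17), 0.792 CPM (0.522 to 1.15) and 0.693 CPM (0.434 to 1.05). All 4 counting intervals overlapped. The knockdown log2 ratios were 0.56 (-0.34 to 1.61) and -0.16 (-1.05 to 0.69), so no difference was detectable at this depth.

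IRF9 (ENSG00000213928.8; chromosome 14, 24161053 to 24166565, plus strand), the DNA-binding partner of STAT2, had 30, 20, 28 and 20 counts, or 0.905 CPM (0.611 to 1.29), 0.653 CPM (0.399 to 1.01), 0.821 CPM (0.546 to 1.19) and 0.630 CPM (0.385 to 0.973). Both knockdown libraries were lower than the scramble libraries, within counting error: the log2 ratios were -0.43 (-1.36 to 0.40) and -0.33 (-1.27 to 0.52). An annotated readthrough gene, AL136295.5, shares 1838 exon bases with IRF9 and had 5, 7, 16 and 11 counts, and reads in shared bases cannot be told apart.

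TAP1 (ENSG00000168394.10; chromosome 6, 32845209 to 32853978, minus strand) had 27 counts in scramble, 39 in knockdown, 50 in scramble with imatinib and 17 in knockdown with imatinib, or 0.815 CPM (0.537 to 1.18), 1.27 CPM (0.905 to 1.74), 1.47 CPM (1.09 to 1.93) and 0.536 CPM (0.312 to 0.857). The single treatments gave the higher counts and the combination the lowest. Its knockdown log2 ratio was 0.62 (-0.09 to 1.42) without imatinib and -1.34 (-2.32 to -0.62) under it, and no change was called (log2 fold change -0.35, SE 0.467, edgeR adjusted p = 0.756). The span of TAP1 overlaps that of PSMB9, with 0 shared exon bases, and PSMB9, an immunoproteasome subunit, had 12, 1, 7 and 6 counts.

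Across the 9 genes, 7 were higher and 2 lower with knockdown in untreated cells, with a median log2 ratio of 0.28 against 0.00 over all 13296 genes. Under imatinib 5 were higher and 4 lower, with a median of 0.16 against 0.02. Changes of 2-fold were rare. In untreated cells 0 of 9 were 2-fold higher and 1 of 9, IFITM3, 2-fold lower, against 0.925% and 1.75% of all tested genes. IFITM3, IFI6 and IRF9 are among the 9 but not among the tested genes, which are more abundant, so here and below these shares do not cover genes of such low counts. Under imatinib 0 of 9 were 2-fold higher and 1 of 9, TAP1, 2-fold lower, against 1.32% and 1.51%.

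Imatinib comparisons address how the drug moves transcripts in cells that resist it, with and without TCF7 knockdown. IFITM1 rose about 1.7-fold, BST2 rose about 1.3-fold and B2M fell to about 0.85 of its level, each in scramble and in knockdown cells alike. Of the 6 tested genes, 2 were called higher and 1 lower, where 13.8% of 13296 genes were called higher, 7.08% lower and 20.9% in either direction. Only the IFITM1 call among these 3 held in the fit with GC content and transcript length trends as offsets, in which 1 of 6 tested genes was called higher and 0 lower, and 2.08% of 13255 genes were called higher, 2.27% lower and 4.35% in either direction.

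IFITM1 under imatinib was 1.69-fold its untreated level (1.55 to 1.86) in scramble cells and 1.66-fold (1.52 to 1.83) in knockdown cells. Its log2 fold change over both hairpins was 0.75 (SE 0.105, edgeR adjusted p = 4.56e-06), higher in 2 of 2 pairs, and 0.66 with the offsets (adjusted p = 1.27e-09). IFITM1 was also fitted with 3 libraries and without the knockdown term, which leaves 1 library in a group, so only effect sizes are given. Its log2 fold change was then 0.83 without scramble with imatinib, 0.66 without scramble, 0.85 without knockdown and 0.67 without knockdown with imatinib.

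BST2 under imatinib was 1.29-fold its untreated level (1.20 to 1.39) in scramble cells and 1.33-fold (1.25 to 1.42) in knockdown cells. It rose by a log2 fold change of 0.39 (SE 0.0884, edgeR adjusted p = 0.00174), higher in 2 of 2 pairs. With the offsets the value was 0.15 (adjusted p = 0.318). With 1 library left out and no knockdown term in the fit, it ranged from 0.11 to 0.66. B2M was at 0.845 (0.821 to 0.870) and 0.867 (0.844 to 0.891) of its untreated level in scramble and knockdown cells. It fell by 0.22 on the log2 scale (SE 0.0692, edgeR adjusted p = 0.0191) in 2 of 2 pairs. With the offsets the log2 fold change was -0.08 (adjusted p = 0.542), and with limma on the deposited values -0.21 (adjusted p = 0.0774). In the fits with 1 library left out and no knockdown term, it ranged from -0.38 to -0.07.

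GC content moved with the ratios of imatinib over none. Over 10095 genes, taken as a description because genes do not replicate each other, the log2 ratio had a Spearman correlation with GC content of 0.68 in scramble cells and 0.75 in knockdown cells, against -0.11 and 0.37 for knockdown without and with imatinib. BST2 (57.3% GC) and ISG15 (63.4%) lie above the median of 47.3% and B2M (40.6%) below it, and IFITM1 is at 52.5%.

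ISG15 had imatinib log2 ratios of 0.54 (0.18 to 0.93) and 0.63 (0.31 to 0.97). It was not called (log2 fold change 0.60, SE 0.238, edgeR adjusted p = 0.0693), and stood at 0.14 with the offsets. By limma on the deposited values it was called (0.59, adjusted p = 0.0313). IFITM2 had log2 ratios of -0.08 (-0.24 to 0.08) in scramble cells and 0.41 (0.27 to 0.56) in knockdown cells and was not called (0.17, SE 0.126, edgeR adjusted p = 0.348).

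Among the low genes, IFITM3 had imatinib log2 ratios of 0.17 (-0.59 to 0.96) in scramble cells and 1.11 (0.18 to 2.40) in knockdown cells. IFI6 had 0.56 (-0.32 to 1.58) and -0.17 (-1.08 to 0.72). IRF9 had ratios near 0 in both states, with intervals from -0.95 to 0.64 and from -1.03 to 0.91. TAP1 had 0.79 (0.13 to 1.57) in scramble cells and -1.16 (-2.17 to -0.40) in knockdown cells, on opposite sides of 0, and was not called (-0.13, SE 0.466, edgeR adjusted p = 0.873). Over the 9 genes the median log2 ratio for scramble cells was 0.37 and that for knockdown cells 0.41, against -0.01 and 0.01 over all tested genes. In scramble cells 0 of 9 were 2-fold higher or lower, against 0.835% and 0.474% of tested genes. In knockdown cells 1 of 9 was 2-fold higher (IFITM3) and 1 of 9 lower (TAP1), against 2.64% and 1.07%.

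The rest of the interferon pathway was described from gene lists, chosen with earlier results of these data known. Ligands were near 0: 8 of 21 interferon genes had a row, and their summed counts were 1, 5, 3 and 2 in the 4 libraries. At these totals a count of 0 allows 0.0880 to 0.0979 CPM, which covers counting error only. Receptors and JAK-STAT genes were well expressed. Of 18 tested, 1 rose and 0 fell with knockdown, near the background, where 3.80% of all tested genes rose and 3.34% fell, and their median log2 fold change was 0.09 against 0.01 over all genes. The gene that rose was IFNGR1, a chain of the type II receptor (0.39, SE 0.0973, edgeR adjusted p = 0.00885). Of the signal chain to the ISRE, these genes were not called for knockdown: IFNAR1 had 0.16 (adjusted p = 0.252; with the GC and length offsets 0.19, called, adjusted p = 0.0365), IFNAR2 -0.18 (0.516), JAK1 -0.08 (0.650), TYK2 0.18 (0.194) and STAT2 0.17 (0.342). None of the 7 tested interferon regulatory factors and their partners was called for knockdown (0 rose, 0 fell; median 0.18, edgeR; 3 at an unadjusted p under 0.05), with IRF1 at 0.17 (adjusted p = 0.705) and IRF7 at 0.81 (adjusted p = 0.275). Of 11 tested sensors and adaptors, 1 rose with knockdown, against the same 3.80% of all tested genes: TMEM173, which encodes the DNA-signalling adaptor STING (0.45, SE 0.0883, edgeR adjusted p = 0.000719). With the offsets 4 of the 11 were called higher, where 6.77% of all genes were: TMEM173, MAVS (0.17, adjusted p = 0.0406), TRIM25 (0.18, adjusted p = 0.0377) and EIF2AK2 (0.21, adjusted p = 0.0115).

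Other interferon-stimulated genes were represented by 51 rows, of which 28 were tested. With knockdown 7 rose and 1 fell, and 20 were not called, where 3.80% of all tested genes rose and 3.34% fell. The median log2 fold change of the 28 was 0.22 against 0.01 over all genes. GBP2, an interferon-induced GTPase, rose by 1.14 (SE 0.174, edgeR adjusted p = 1.85e-05), with 236, 386, 187 and 470 counts. PARP9 and DTX3L, which act as a complex, rose by 0.86 (adjusted p = 0.00497) and 0.57 (adjusted p = 0.00575), and PARP14, a related ADP-ribosyltransferase, by 0.58 (adjusted p = 0.00194). LY6E, a membrane-anchored surface protein, rose by 0.36 (adjusted p = 0.00287). TRIM14, an adaptor of antiviral signalling, fell by 0.67 (SE 0.0964, adjusted p = 6.86e-06), with log2 ratios of -0.76 and -0.59. CMPK2, a nucleotide kinase, and SAMD9L, an antiviral factor, complete the 7 that rose (0.46 and 1.64, adjusted p = 0.0106 and 0.0165), and were named after their values were seen.

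**Figure D4:**
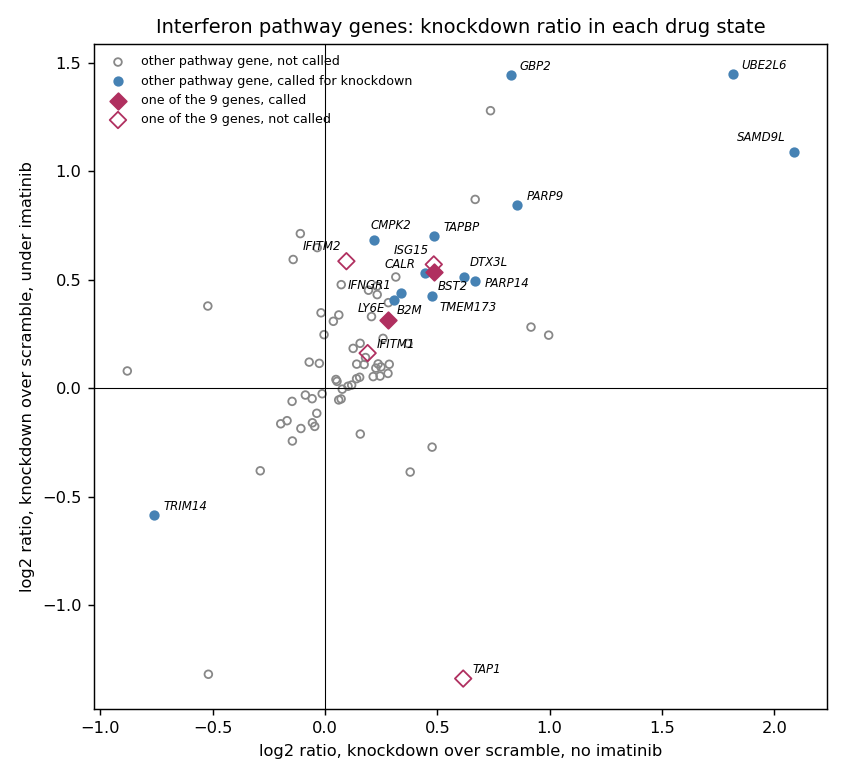
Log2 ratio of TCF7 knockdown over scramble without imatinib (x axis) and under imatinib (y axis) for tested genes of the interferon pathway lists; diamonds are the tested members of the 9 genes and filled symbols passed the test over both states. Called genes lie at positive values on both axes except TRIM14, at -0.76 and -0.59, and TAP1 lies at 0.62 and -1.34. The call was made on both states together, so like signs of called genes are not a separate result.

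The ISG15 conjugation pathway had 2 tested genes. UBE2L6, a conjugating enzyme of ISG15, rose with knockdown (log2 fold change 1.71, SE 0.426, edgeR adjusted p = 0.00854), with 14, 50, 25 and 66 counts. ARIH1 was not called (-0.06, adjusted p = 0.744). The other genes of this list with a row were too low to be tested. UBA7 had 8, 17, 22 and 16 counts, USP18 12, 18, 17 and 14, and HERC5 0, 0, 0 and 1.

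Class I antigen presentation, the pathway of TAP1 and B2M, had 10 tested genes. With knockdown 2 of them rose and 0 fell, where 3.80% of all tested genes rose and 3.34% fell. The median log2 fold change of the 10 was 0.25 against 0.01 over all genes. TAPBP (tapasin), which bridges the TAP transporter and class I molecules, rose by 0.60 (SE 0.0902, edgeR adjusted p = 1.62e-05), and CALR, a chaperone of class I folding among many other proteins, by 0.49 (SE 0.0699, adjusted p = 6.87e-06). TAP2, the partner of TAP1, was not called (-0.11, adjusted p = 0.684) and, at 800, 707, 863 and 710 counts, was far above TAP1. HLA-B and HLA-C, classical heavy chains that pair with B2M, were at or near 0, with HLA-B at 0, 1, 0 and 4 counts and HLA-C at 0, 1, 0 and 1. HLA-E, a nonclassical heavy chain, had 888, 777, 1037 and 1036 counts and was not called for knockdown (0.03, adjusted p = 0.934). K562 cells are known for their lack of surface class I. PSMB8 was not analysed here.

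Calls for knockdown in these lists depended on the test. Outside the 9 genes, 13 genes of the lists were called by edgeR. DESeq2 called 5 of them, GBP2, TRIM14, TMEM173, TAPBP and CALR. With limma on the deposited FPKM values 5 were called, TRIM14, TMEM173, TAPBP, CALR and UBE2L6. All 13 were called with the GC and length offsets, and so were IFNAR1, MAVS, TRIM25, EIF2AK2 and PSME2, which edgeR without offsets did not call; over all genes the calls went from 949 to 1631. In the fits of 3 libraries 7 were called without the knockdown library, 5 without knockdown with imatinib, and 0 without either of the scramble libraries.

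Under imatinib fewer genes of these lists were called with the GC and length offsets than without them, and over all genes the calls went from 2780 to 577. Receptors and JAK-STAT genes had 3 that rose and 2 that fell of 18, near the background of 13.8% and 7.08% of all tested genes, with a median of -0.03. TYK2 (0.44, edgeR adjusted p = 0.000213), SOCS1, a feedback inhibitor of JAK kinases (0.88, adjusted p = 0.0019), and PTPN1, a phosphatase of JAK kinases (0.30, adjusted p = 0.00662), rose. JAK2 fell by 0.38 (adjusted p = 0.0017) and PIAS1 by 0.23 (adjusted p = 0.0445). Of these 5, PTPN1 was called with the offsets (0.26, adjusted p = 0.00733).

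Against the same background of 13.8% that rose, regulatory factors had 3 of 7: IRF3 (0.51, edgeR adjusted p = 0.00104), IRF2BP1 (0.75, adjusted p = 7.93e-05) and IRF2BPL (0.71, adjusted p = 0.000685). With the offsets 0 of the 7 were called. Of sensors and adaptors 4 of 11 rose, namely MAVS, TICAM1, TMEM173 and TRIM25, and MAVS, the mitochondrial adaptor of RNA sensing, was called with the offsets too (0.33 without them, 0.24 with them, adjusted p = 0.00609).

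Of the 28 other interferon-stimulated genes, LY6E rose by 0.60 (edgeR adjusted p = 2.06e-06), TRIM14 rose by 0.37 (adjusted p = 0.00564) and SP100 fell by 0.28 (adjusted p = 0.0173), with a list median of -0.07. These are 2 of 28 that rose and 1 that fell, where 13.8% of all tested genes rose and 7.08% fell. With the offsets LY6E, TRIM14 and SP100 were at 0.10, 0.23 and -0.17 and not called. In that fit 1 other gene of the 28 was called higher and 0 lower, where 2.08% of genes were called higher and 2.27% lower. Of the 10 class I genes 0 were called for imatinib by edgeR, with or without the offsets, and 2 had an unadjusted p under 0.05 without them. Outside the 9 genes, 15 genes of the lists were called for imatinib by edgeR, of which DESeq2 and limma each called 7 and the fit with offsets 2. Calls from the fits of 3 libraries are again not counted.

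The ISRE core was also counted in the promoters of the other lists. Of the other interferon-stimulated genes, 29 of 44 with a RefSeq window held it. Of those with a row in the table, it was in 10 of 14 that had at most 10 counts in every library and in 16 of 26 above that. Of genes with a window, 9 of 16 in class I presentation, 5 of 16 sensors and adaptors, 5 of 18 ligands and 1 of 3 in ISG15 conjugation held it. So did 1 of 16 receptor and JAK-STAT genes, 0 of 7 regulatory factors and 0 of 8 class II genes. Over all promoters 3.57% of windows held it.

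The genes whose pattern over the 4 libraries was most like that of BST2 were ACKR2, an atypical chemokine receptor, SLC12A7, a potassium-chloride cotransporter, and CDKN2C, an inhibitor of cyclin-dependent kinases. Their distances from BST2 in centred log2 CPM were 0.0209, 0.0410 and 0.0732, the smallest among 10104 other genes with a mean level of at least 5 CPM. This is a description over 4 libraries.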

How the data were processed

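Directional libraries were made from 3 µg of total RNA after removal of ribosomal RNA, per the labels' protocols. The submitters' processing notes name FastQC, HISAT2, HTSeq 0.6.1 and GRCh38. For the annotation release, counting mode and strand setting, the sources used here give nothing. Read counts per gene were used as the authors deposited them. Because 6 genes have negative values in the deposited FPKM columns, these were read as a score and served 1 alternative. Positions come from GENCODE release 29 on GRCh38, matched for 28329 of 28482 identifiers, and promoter sequences from RefSeq (GRCh38.p14).

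The filter kept 13296 genes that reached 1 CPM in 2 libraries. In R 4.3.3, edgeR 4.0.16 fitted a quasi-likelihood model to the counts of the 4 libraries with TMM scaling and additive knockdown and imatinib terms. P-values were adjusted by Benjamini-Hochberg over all tested genes, with a threshold of 0.05. This leaves 1 residual degree of freedom, with 33.8 prior degrees shared across genes. With 1 library per group, the residual is the departure of the 4 libraries from additive terms. It mixes variation between libraries, which may be technical, with any interaction of knockdown and imatinib. No spread between replicates enters the p-values, and a lasting difference between cultures cannot be told apart from knockdown. CPM has an exact Poisson 95% interval. Log2 ratios of 2 libraries use TMM-scaled CPM with a prior count of 2 and the exact binomial (Clopper-Pearson) interval of both counts. Neither interval covers more than counting error, and reads without molecular identifiers are not separate molecules. The interaction was not tested. The script was tested on simulated data.

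Alternatives were DESeq2 size factors, total counts, no filter, a filter at 5 CPM, DESeq2 1.42.0, limma 3.58.1 on log2 of the deposited FPKM plus 0.1, GC and length trends per library as offsets (mgcv 1.9.3, 13255 genes), the fit without the other factor, each library left out, and, for ratios, a prior count of 0.5, other scalings and GC and length trends removed. The members and lists were chosen with earlier results of these data known. The rule for named genes takes the 9 genes and TCF7, of each list the called genes (up to 6 per factor by adjusted p) and up to 4 uncalled genes of highest CPM, a fixed set of signalling and class I genes, the 3 genes most like BST2, and genes that overlap a member; of the uncalled genes only some are printed. A few named genes are not reported here.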

Additional observations from a re-analysis of the deposited data

Results flagged for a closer look

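The imatinib ratio of TAP1 pointed in opposite directions in the 2 hairpin states, with both counting intervals away from 0. It was 0.79 (0.13 to 1.57) in scramble cells, from 27 and 50 counts, and -1.16 (-2.17 to -0.40) in knockdown cells, from 39 and 17 counts. The second minus the first is -1.95 on the log2 scale. This difference was not tested, because 1 library per group leaves no error for it, and the intervals cover counting error only.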

How the results depend on the processing

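No paired analysis of replicates was possible because each group had 1 library. The additive fit already compares each factor within the states of the other. BST2 and B2M were called for knockdown, and IFITM1, BST2 and B2M for imatinib, under DESeq2 size factors, total counts, no filter, a 5 CPM filter and DESeq2. Genes called for knockdown numbered 272 with DESeq2, 195 with limma, 1631 with the offsets and 0 without the imatinib term (edgeR; 818 at an unadjusted p under 0.05), and 34 to 759 with 1 library left out. Genes called for imatinib numbered 1003, 1094, 577 (276 higher and 301 lower, against 1839 and 941) and 0 (2651 unadjusted) in that order, and 0 to 579 with 1 library left out (edgeR; 1354 to 3363 unadjusted). Of the 9 genes, limma called 1 for knockdown, the offsets called 1 for imatinib, and the fits without the other factor called 0 (1 unadjusted for each factor). The fits of 3 libraries, with 1 library left out, leave 1 library in a group, so effect sizes are given above without calls. Those fits of 3 libraries leave out the other factor, and a lone library is assumed to vary like the others. Of 70 alternative knockdown values of the 6 tested genes 55 kept direction and call, 10 lost the call, 1 gained it and 4 uncalled values changed sign or moved. For imatinib these were 46, 17, 1 and 4 of 68. Both sets of values include the fits without the other factor and the fits of 3 libraries. Of 144 alternative pair ratios 137 lay within the main counting interval; the other 7 were from GC and length trends removed. Depth limits IFITM3, IFI6, IRF9 and TAP1, with 11 to 50 counts per library. The causes were not tested.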

Other observations

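Some class I genes too low for the test had their highest counts in the knockdown library with imatinib, and were chosen after their values were seen. PSMB10, an immunoproteasome subunit, had 3, 9, 10 and 50 counts in the order scramble, knockdown, scramble with imatinib, knockdown with imatinib. TAPBPL, a relative of tapasin that edits class I peptides, had 9, 29, 15 and 54 counts. In the same library TAP1 had its lowest count, 17, and PSMB9 had 6.

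Genes of class II antigen presentation, the other branch that interferon is known to raise, were low in every library. CIITA, its master regulator, had 1, 0, 2 and 0 counts, and CD74, the invariant chain, had 28, 10, 5 and 23. NLRC5, the regulator of class I genes, had 1, 4, 5 and 4 counts.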
